A study of Mus musculus with 53 samples.

Results

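The genes of oxidative phosphorylation were followed across 53 mouse liver libraries from 3 experiments. They comprise 105 of the 36410 genes listed in all 3 count tables, 12 encoded by mitochondrial DNA and 93 by nuclear DNA. Genes were taken by symbol (mt-Nd, mt-Co, mt-Cytb, mt-Atp, Nduf, Sdh, Uqcr, Cox4, Cox5, Cox6, Cox7, Cox8 and Atp5), had to be protein coding, and had to reach a mean of at least 1 CPM in at least 1 of the 9 groups. Ndufs5 was left out of the choice. CPM gives the counts of a gene scaled to a common library size. The levels that decided membership were scaled by library totals alone, and all other CPM levels use the TMM factors described in the methods. Of 110 protein-coding genes with such symbols, 109 were in all tables and 4 stayed under the level. Under it lay Cox4i2, with 0.346 CPM in its highest group, and mt-Nd4l, which was hardly counted, with 0.0514. Cox7b2 and Cox8c were at 0 in every group. Just above it lay Cox6b2, with 2.49 CPM in its highest group, and Cox8b, with 2.57. Members were thus chosen by symbol and selected on their mean CPM in the groups, and a member that is high in only some of them, such as Cox6a2, Cox6b2 or Cox8b, was bound to differ between groups.

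Oxidative phosphorylation takes place in the inner mitochondrial membrane. Complexes I (NADH dehydrogenase), II (succinate dehydrogenase), III (cytochrome bc1) and IV (cytochrome c oxidase) pass electrons from NADH and succinate to oxygen, and all but complex II pump protons, whose return through complex V, the ATP synthase, drives the making of ATP. Complexes I, III, IV and V join subunits encoded in mitochondrial DNA to subunits encoded in the nucleus, whereas complex II is encoded in the nucleus alone. Hepatocytes are rich in mitochondria, which supply ATP for gluconeogenesis, urea synthesis and the oxidation of fatty acids. Complex I had 6 mitochondrial and 43 nuclear members, complex II had 8 nuclear members, complex III had 1 and 8, complex IV had 3 and 17, and complex V had 2 and 17. Ndufa4 and Ndufa4l2 were placed in complex IV, where the Ndufa4 protein is found. The nuclear members comprise 79 subunits, 12 assembly factors named Ndufaf or Sdhaf, and Cox7a2l and Atp5s, which are associated or assembly factors.

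All mice were male C57BL/6J, and whole liver was snap-frozen before total RNA was extracted for Illumina mRNA libraries. In the diet experiment, mice aged 9 weeks at the start ate a low-fat control diet (9 wild-type livers) or a Western diet (7 wild-type livers and 7 labelled Bmp8b knockout) for 32 weeks. In the toxin experiment, mice aged 16 weeks received an intraperitoneal injection of olive oil (6 wild-type livers) or of carbon tetrachloride (CCl4), a toxin activated in hepatocytes, given at 2 ul per g body weight of a mix with an equal volume of olive oil (4 wild-type livers and 6 labelled Bmp8b knockout), and livers were taken 3 days later. In the surgery experiment, mice aged 16 weeks underwent partial hepatectomy. Liver resected at surgery (day 0) gave 5 wild-type samples, and liver taken 3 days later gave 5 wild-type samples and 4 labelled Bmp8b knockout. No group of unchallenged knockout mice was among the samples used here. Bmp8b codes for a signalling protein of the BMP group that cells release, and its reads do not check the genotype. Its mean level was 1.53 ± 0.523 CPM (SD) in the labelled knockout and 1.07 ± 0.491 in the wild-type livers on Western diet, 1.18 ± 1.04 and 0.464 ± 0.629 after CCl4, and 2.12 ± 0.703 and 0.848 ± 0.407 at day 3, so it was not lower where the label says knockout. The term labelled knockout is used for these groups throughout.

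Each diet library held between 8963187 and 15196537 counts, each toxin library between 2661699 and 6364414, and each surgery library between 2450358 and 6914274. The summed level of 10 hepatocyte markers ran from 63760 to 172300 CPM over all livers, as the tissue label implies. The labels number the livers and say no more about where each came from, so the tests measure the spread between these livers. In whole tissue, fewer cells of a type and less RNA per cell cannot be told apart.

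The tables differed in which mitochondrial genes they counted. Nuclear DNA holds copies of mitochondrial genes, and a stretch of chromosome 1 carries several of them side by side. A 60-base window of 3 genes is shown with its copy because a read that spans no differing base matches both places. Where gene and copy differ, the window was placed to hold a differing base. On GRCm38 the windows are chrM:6390-6449, chrM:7323-7382 and chrM:9459-9518 on the plus strand, and their copies Gm29216, Gm28661 and Gm28438 are at chr1:24616129-24616188, chr1:24615196-24615255 and chr1:24613060-24613119 on the minus strand, written here in the direction of the gene. Capitals mark a base that differs between gene and copy.
mt-Co1: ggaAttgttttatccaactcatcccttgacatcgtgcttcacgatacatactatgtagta
Gm29216: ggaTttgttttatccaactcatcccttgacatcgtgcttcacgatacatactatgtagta
mt-Co2: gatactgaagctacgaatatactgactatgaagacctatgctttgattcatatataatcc
Gm28661: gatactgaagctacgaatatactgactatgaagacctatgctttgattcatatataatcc
mt-Nd3: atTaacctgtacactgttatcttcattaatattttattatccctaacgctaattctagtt
Gm28438: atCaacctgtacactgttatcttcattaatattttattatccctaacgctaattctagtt
The mt-Co1 window differs by A1066T and the mt-Nd3 window by T3C (gene base, position counted from 1 at the first base of the gene, copy base), and the mt-Co2 windows are the same. The mt-Co2 copy matched 99.6% of the gene at 100% identity, and the copies of mt-Atp6, mt-Co3 and mt-Nd3 matched 99.6%, 99.9% and 99.1% of theirs. The copies covered 31.3% of mt-Co1, 63.6% of mt-Nd4 and 21.1% of mt-Atp8. For mt-Nd1, mt-Nd2, mt-Nd5, mt-Nd6 and mt-Cytb no annotated copy was found in this stretch of chromosome 1. Copies elsewhere were not looked at for the mitochondrial members.

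In the surgery table, mt-Co2 held 1 count and mt-Atp6 held 2 over all 14 livers, and mt-Co3, mt-Nd3 and mt-Atp8 held 0. In the toxin table the same genes held 389052, 771353, 678156, 60757 and 29272 counts over 16 livers. The level of mt-Co1 at day 0 of the surgery was 47.6% of that after olive oil, and that of mt-Nd4 was 44.3%. For mt-Nd1, mt-Nd2, mt-Nd5 and mt-Cytb, without a copy found in that stretch, the day 0 livers lay at 100.5%, 98.1%, 105.6% and 95.9% of the olive oil level. mt-Nd6, also without a copy found there, lay at 65.4% of the olive oil level, with means of 42.3 and 64.7 CPM. The chromosome 1 copies themselves held between 0 and 39 counts in the surgery table and are not listed in the others. How reads with several matches were treated is not given in the sources used here, and its part in these values was not tested.

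Nuclear members differed between the tables as well. The mean level of Atp5g1, 1 of 3 genes for the ATP synthase c-ring subunit, was 69.4 ± 9.45 CPM (SD, n = 6) after olive oil and 2.51 ± 1.19 (n = 5) at day 0 of the surgery. Day 0 livers held 5.05% of the olive oil level for Atp5g2, another c-ring gene, 6.66% for Cox7c, a small complex IV subunit, 14.0% for Atp5l, subunit g of ATP synthase, and 25.2% for Ndufb4 of complex I. Of the 89 nuclear members with at least 1 CPM after olive oil, 74 were within 1.5 times of it at day 0, with a median ratio of 97.1%, and 4 were under 1/4 of it. Between olive oil and low-fat diet, 83 of the 89 were within 1.5 times. Annotated pseudogene transcripts matching at least 97% over at least 50% of the gene were found for Atp5l (4 copies), Uqcrb (3), Atp5g2 (2), Atp5h, Atp5o and Ndufs3 (1 each), but not for Atp5g1, Cox7c or Ndufb4. The transcript searched for Atp5g1 was 4715 bases long, against 731 for Atp5g2. A copy of a short form of Atp5g1 would stay under the 50% rule, so the search cannot decide whether Atp5g1 has copies. Levels are therefore compared within a table, and 7 mitochondrial members remain measurable in the surgery experiment.

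**Figure D1:**
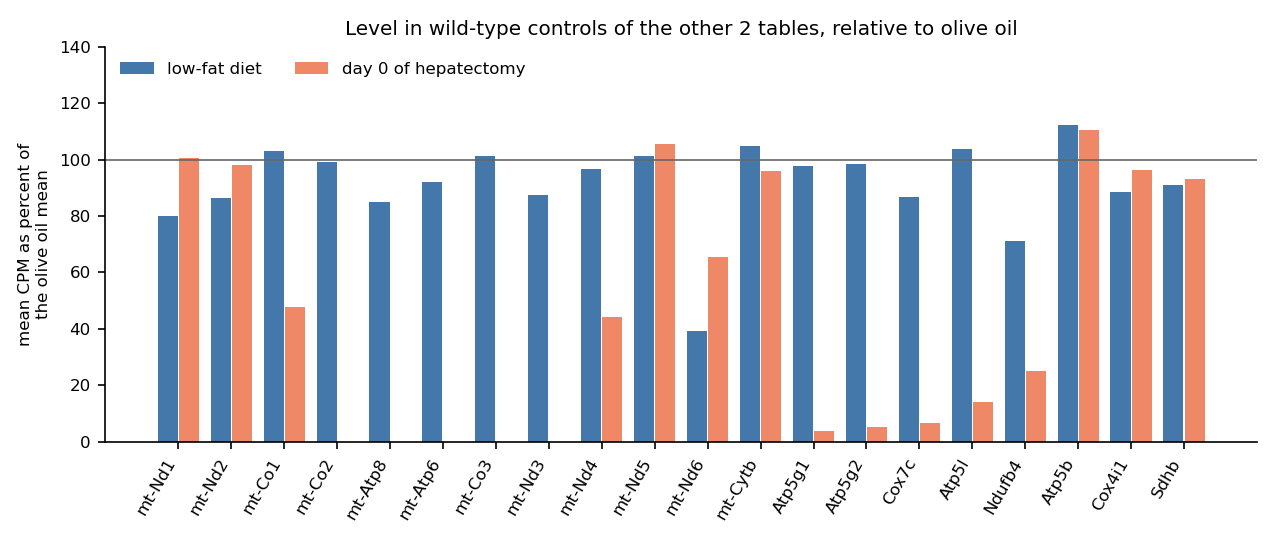
Mean level of named members in wild-type control livers on low-fat diet and at day 0 of hepatectomy (y axis, percent of the mean CPM after olive oil), for the 12 mitochondrial members and 8 nuclear members (x axis). The day 0 bars of mt-Co2, mt-Atp8, mt-Atp6, mt-Co3 and mt-Nd3 are at 0 and those of Atp5g1, Atp5g2 and Cox7c are under 7%, while Atp5b, Cox4i1 and Sdhb are near 100%.

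Per kilobase of transcript, which allows genes to be set side by side, mitochondrial messenger RNAs stood far above nuclear ones. After olive oil, mt-Atp6 (subunit a of ATP synthase) had the highest level, 20630 ± 1772 CPM per kb (n = 6). It was followed by mt-Co1 with 15980 ± 916 and mt-Co3 with 15890 ± 1089, 2 catalytic-core subunits of complex IV that lay within 1 SD of each other. Next came mt-Cytb of complex III with 10590 ± 787 and mt-Co2 with 10260 ± 742, again within 1 SD. On low-fat diet the first 5 places went to the same genes in the same order, with mt-Atp6 at 18990 ± 2714 (n = 9). mt-Nd6, the member transcribed from the other strand of mitochondrial DNA, was the lowest of the 12, at 124.6 CPM per kb after olive oil and 48.8 on low-fat diet.

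Among nuclear members, Atp5b, the catalytic beta subunit of ATP synthase, had the highest level, 607.7 ± 25.4 CPM per kb after olive oil. The 2 nuclear genes with the highest mean over all 9 groups were Atp5b and Atp5a1 (417.1 ± 20.8 after olive oil) in complex V and Cox4i1 and Ndufa4 (477.1 and 423.9) in complex IV. In the other complexes they were Uqcrh and Uqcr10 in complex III (274.6 and 217.7 after olive oil), Ndufb9 and Ndufa6 in complex I (251.1 and 189.7), and the membrane anchor Sdhd and the flavoprotein Sdha in complex II (171.6 and 160.6). Ranked after olive oil alone, Uqcr11 (293.4) led complex III and Sdhb (181.7) led complex II. The median nuclear level per kb after olive oil was 70.6 in complex I, 32.3 in complex II, 149.9 in complex III, 168.9 in complex IV and 167.4 in complex V. These medians take in the assembly factors, which belong to complexes I and II.

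As a share of all counts, the mitochondrial members fell after CCl4 in every liver. They made up 8.32% to 10.1% of counts after olive oil and 6.40% to 7.10% in wild-type livers after CCl4, with no overlap. The nuclear members made up 0.967% to 1.10% after olive oil and 0.739% to 1.03% after CCl4, with 2 of the 4 livers inside the olive oil range. On low-fat and Western diet the mitochondrial share was 9.43 ± 0.955% (SD, n = 9) and 8.78 ± 0.884% (n = 7), and the nuclear share was 1.08 ± 0.0726% and 1.06 ± 0.0589%, each differing by less than 1 SD. At day 0 and day 3 of hepatectomy, the 5 mitochondrial genes without a copy in the chromosome 1 stretch made up 3.21 ± 0.391% and 2.95 ± 0.283% of counts (n = 5 each). The nuclear members made up 1.07 ± 0.0361% and 0.979 ± 0.0891%.

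**Figure D2:**
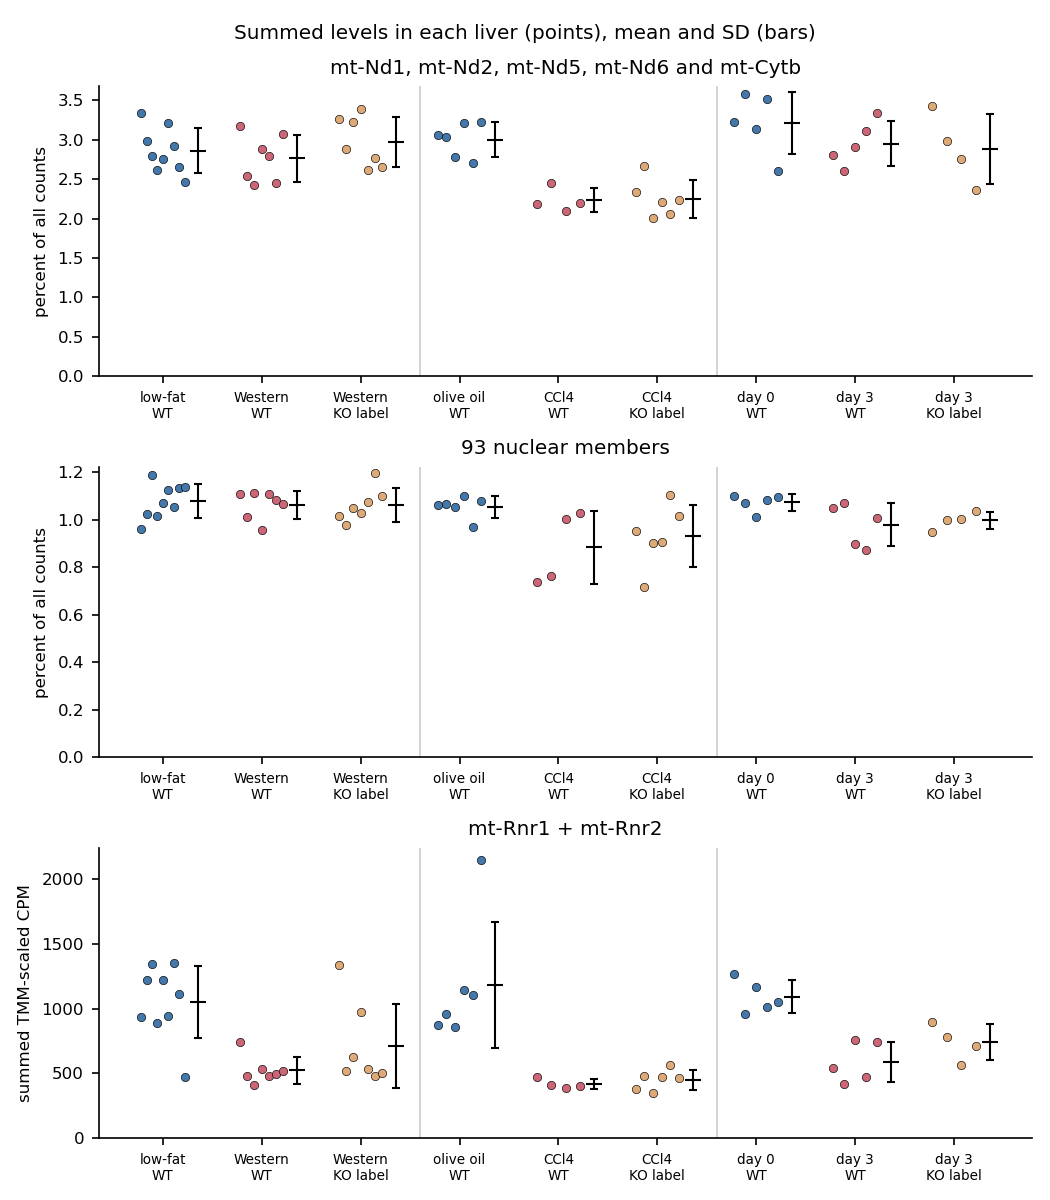
Share of all counts (y axis, percent) taken in each liver (points) by mt-Nd1, mt-Nd2, mt-Nd5, mt-Nd6 and mt-Cytb together (top) and by the 93 nuclear members (middle), and the summed CPM of the mitochondrial ribosomal RNAs (bottom), in the 9 groups (x axis), with group mean and SD (bars). The 5 mitochondrial genes lie at 2.71% to 3.23% after olive oil and at 2.10% to 2.45% in wild-type livers after CCl4.

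After CCl4, messenger RNAs of all the complexes fell. In wild-type livers, 9 of 12 mitochondrial members and 46 of 88 nuclear members tested were lower than after olive oil (edgeR's quasi-likelihood test, Benjamini-Hochberg adjusted p under 0.05 over all genes, called lower or higher below), and none was higher. Over all 11663 genes tested, 8.87% were called lower and 11.1% higher. The median log2 fold change was -0.69 for mitochondrial members, -0.50 for nuclear members and 0.05 for all genes. Of the called members, all 9 mitochondrial and 40 nuclear ones had groups that did not overlap, as did 80% of all 1035 genes called lower. Scaling by library totals instead of TMM factors raises the median of all genes to 0.30, and then 7 mitochondrial and 9 nuclear members were called lower, with medians of -0.47 and -0.26. The number of nuclear members called after CCl4 thus depends on the scaling, while both medians stayed negative. The share of all genes called with library totals is not given here.

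Mitochondrial messengers fell across 4 complexes. mt-Nd2, a core membrane subunit of complex I, had 3223, 4004, 4211 and 5064 CPM in the 4 wild-type livers after CCl4 and between 6943 and 9981 (median 7858) after olive oil. No liver after CCl4 reached the olive oil range. The log2 fold change was -0.96 ± 0.18 (SE, edgeR adjusted p = 0.00203), a level 1.95-fold lower. mt-Co1, the subunit of complex IV that holds the oxygen-reducing site, had 12450, 14000, 14340 and 14690 CPM after CCl4 against 22640 to 26230 (median 25250) with a log2 change of -0.83 ± 0.18 (edgeR adjusted p = 0.00478). The others called were mt-Nd4 (-0.83), mt-Atp8 (-0.77), mt-Co3 (-0.72), mt-Atp6 (-0.66), mt-Co2 (-0.62), mt-Cytb (-0.58) and mt-Nd3 (-0.56), values being log2 fold changes. mt-Nd1, with 4888, 4963, 5304 and 6502 CPM against 7205 to 8381, did not overlap but did not pass the test (-0.53 ± 0.21, edgeR adjusted p = 0.0867). mt-Nd5 (-0.57) and mt-Nd6 (-0.77) did not pass either, and their groups overlapped.

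Among nuclear members the counts called lower were 25 of 43 for complex I, 2 of 8 for complex II, 5 of 8 for complex III, 7 of 12 for complex IV and 7 of 17 for complex V. The nuclear medians were -0.52, -0.40, -0.54, -0.44 and -0.53 in the same order. Of nuclear subunits 44 of 74 were called lower (median -0.54), and of the Ndufaf and Sdhaf assembly factors 2 of 12 (median -0.26). The difference between complexes and between subunits and assembly factors was not tested.

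The 5 largest nuclear falls after CCl4 were those of Ndufaf6, Ndufaf1, Uqcr11, Sdhb and Ndufa6. Sdhb, the iron-sulphur subunit of complex II (chr4:140961203-140979193, GRCm38), had 88.8, 109.3, 114.4 and 122.2 CPM after CCl4 and 181.3 to 248.2 (median 203.1) after olive oil. It was 1.91-fold lower, with a log2 change of -0.93 ± 0.15 (edgeR adjusted p = 0.00102). Sdha, its flavoprotein partner, fell as well (-0.72), whereas the membrane anchor Sdhd did not pass the test (-0.12, edgeR adjusted p = 0.651).

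Uqcr11, a small subunit of complex III (chr10:80402997-80406830), had 47.9, 64.0, 77.5 and 79.7 CPM after CCl4 and 116.7 to 141.9 (median 130.7) after olive oil, with a log2 change of -0.96 ± 0.20 (edgeR adjusted p = 0.00419). Ndufa6, an accessory subunit of complex I (chr15:82350140-82354322), had 55.7, 58.8, 62.3 and 68.5 CPM against 96.2 to 125.6, with a log2 change of -0.87 ± 0.14 (edgeR adjusted p = 0.000978). Neither gene's groups overlapped. The assembly factors Ndufaf6 and Ndufaf1 had the largest falls on the log2 scale, -1.11 ± 0.34 and -1.01 ± 0.28, at low levels: Ndufaf6 was at 1.45, 5.02, 5.60 and 7.20 CPM after CCl4 and at 9.31 to 12.9 after olive oil. The smallest p of any member was that of Ndufb9, an accessory subunit of complex I, with 92.9, 94.6, 103.2 and 112.8 CPM against 165.0 to 196.1 (log2 fold change -0.81 ± 0.12, edgeR adjusted p = 0.000627).

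Among the nuclear messengers with the highest level per length, Atp5a1, the alpha subunit of ATP synthase, fell by 0.44 on the log2 scale (edgeR adjusted p = 0.0266), and its catalytic partner Atp5b differed by -0.38 ± 0.14 without passing (edgeR adjusted p = 0.0556). Cox4i1 of complex IV fell by 0.42 (edgeR adjusted p = 0.0356). Uqcrh fell by 0.46, while Uqcr10 of the same complex was at -0.06 and did not pass (edgeR adjusted p = 0.796).

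**Figure D3:**
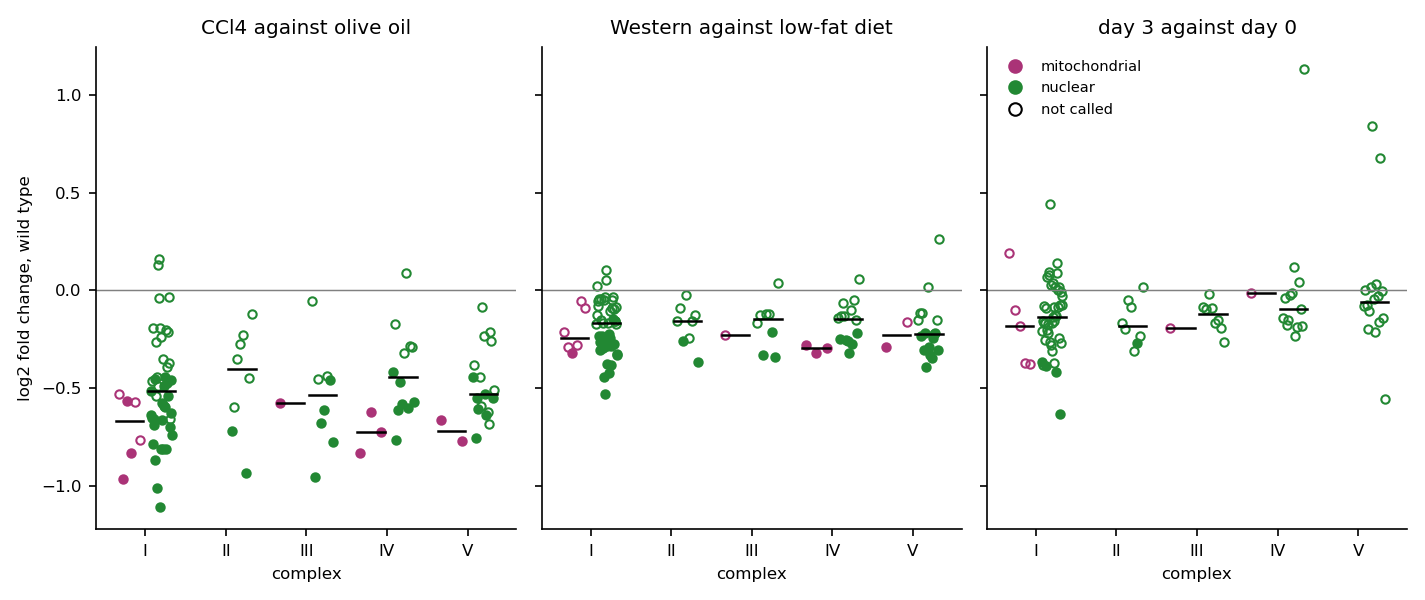
Log2 fold change of each member (points) in the 3 wild-type challenge comparisons, by complex and genome of origin (x axis), with the median of each class (lines). Filled points were called and open ones were not. After CCl4 the class medians lie between -0.40 and -0.72, on Western diet between -0.15 and -0.30, and at day 3 of hepatectomy between -0.19 and -0.01.

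Livers after CCl4 also differed in their other markers. The summed level of 7 markers of dividing cells was 24.2 to 661 CPM in wild-type livers after CCl4 and 3.35 to 13.3 after olive oil, with 7 of 7 called higher. Stellate cell markers, 4 of 8 higher, summed to 441 to 1084 against 114 to 308 CPM, and macrophage markers, 4 of 8 higher, to 359 to 607 against 166 to 497 CPM. Of the hepatocyte markers 0 of 10 were called. Wild-type liver 34 and labelled knockout liver 35 stood apart after CCl4, with 24.2 and 27.0 CPM of dividing-cell markers against at least 176 in the other 8, and with neutrophil markers at 164 and 55.8 CPM, against 58.9 in wild-type liver 4 and at most 8.75 in the rest. Without these 2 livers, 12 of 12 mitochondrial and 48 of 90 nuclear members were called lower, with medians of -0.69 and -0.38. The share of all genes called without these livers is not given here. The i5 index, a tag read at sequencing, was D503 in wild-type livers 4, 5 and 7 after CCl4. It was D505 in liver 34 and D504 or D505 in the olive oil livers. Without liver 34, index and treatment thus cannot be told apart in the wild-type comparison. The part of cell composition in the falls was not tested.

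On Western diet members of both genomes were lower. Of the mitochondrial members 5 of 12 were called lower than on low-fat diet and none higher, and of the nuclear members 39 of 90 were lower and none higher. Over all 13005 genes tested, 17.0% were called lower and 20.4% higher. The median log2 fold change was -0.28 for mitochondrial members, -0.17 for nuclear members and -0.02 for all genes. The counts by complex were 19 of 43 nuclear members lower in complex I, 2 of 8 in complex II, 3 of 8 in complex III, 5 of 14 in complex IV and 10 of 17 in complex V. With library totals in place of TMM factors, the median of all genes moved to 0.15, that of nuclear members to -0.01 and that of mitochondrial members to -0.12, and then 0 mitochondrial members, 3 nuclear members higher and 11 lower were called. The direction of the nuclear members on this diet thus holds relative to the other genes, not as a share of all reads. As for CCl4, the share of all genes called with library totals is not given.

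The mitochondrial members called were mt-Nd3, mt-Co2, mt-Co3, mt-Atp6 and mt-Co1, and every mitochondrial member overlapped between the diets. mt-Nd3, a complex I subunit, ran from 652.1 to 894.2 CPM (median 722.0) on Western diet and from 743.7 to 1150 (median 891.1) on low-fat diet. Its log2 fold change was -0.32 ± 0.10 (edgeR adjusted p = 0.0116). mt-Co1 ran from 17380 to 26310 CPM (median 22100) against 20360 to 30820 (median 25740), with -0.28 ± 0.11 (edgeR adjusted p = 0.0447). Single livers moved the mitochondrial count: 1 was called without wild-type Western diet liver 14, 17 or 34, 8 without liver 36, and 3 without low-fat liver 7, 12, 21 or 25 or labelled knockout liver 2. Within the livers sharing 1 i5 index (a tag read at sequencing that marks a set of libraries), 4 mitochondrial and 18 nuclear members were called for D501 and 0 and 9 for D502, with mitochondrial medians of -0.42 and -0.16 and nuclear medians of -0.21 and -0.18.

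Of the nuclear members lower on Western diet, 7 of 39 had groups without overlap, as did 15% of all 2213 genes called lower. Ndufb5, an accessory subunit of complex I, ran from 51.5 to 68.7 CPM (median 58.0) on Western diet and from 73.2 to 90.1 (median 77.4) on low-fat diet, with a log2 change of -0.42 ± 0.07 (edgeR adjusted p = 0.000113). Sdhd ran from 174.5 to 227.0 CPM against 227.2 to 291.7, with a log2 change of -0.37 ± 0.08 (edgeR adjusted p = 0.000493). Ndufb9 (chr15:58933756-58939488) ran from 98.7 to 143.2 CPM against 147.2 to 178.0, with a log2 change of -0.38 ± 0.07. The assembly factors Ndufaf6 (-0.53) and Ndufaf4 (-0.44) had the largest falls, and the c-ring gene Atp5g1 fell by 0.39. Atp5b and Atp5a1 differed by -0.12 and -0.15 and did not pass.

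Of the hepatocyte markers 8 of 10 were lower on Western diet, with sums of 63760 to 93340 CPM against 96790 to 133200, and their median log2 fold change was -0.60. Macrophage markers, 8 of 8 higher, summed to 487 to 1162 CPM against 172 to 456, and stellate markers, 6 of 8 higher, to 400 to 867 against 209 to 315. Cholangiocyte markers were higher in 3 of 5 and endothelial markers in 4 of 6. The part of these shifts in the members' levels was not tested.

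At day 3 after partial hepatectomy few members had changed. None of the 7 measurable mitochondrial members was called, with a median log2 fold change of -0.18. Unadjusted p was under 0.05 for 1 of the 7 and for 3256 of all 11026 genes. Of 88 nuclear members tested 5 were lower and none higher (5.7%). Over all 11026 genes 7.50% were called lower and 9.87% higher, so the share of members called was below that of all genes. The nuclear median was -0.12, and that of all genes was 0.00 to 2 decimals.

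The 5 lower members were Ndufs7, Ndufb9, Ndufa6 and Ndufa1 of complex I and Sdhb of complex II. Ndufs7, a core subunit that carries an iron-sulphur cluster (chr10:80249121-80256794), had 66.3, 66.6, 69.8, 69.8 and 73.4 CPM at day 0 and 39.1, 42.4, 44.5, 47.9 and 49.6 at day 3. The days did not overlap, and the log2 fold change was -0.63 ± 0.10 (edgeR adjusted p = 0.000135). Ndufa6 had 95.7, 109.2, 109.3, 115.5 and 117.7 CPM at day 0 and 67.6, 75.4, 87.7, 92.7 and 94.6 at day 3, again without overlap (-0.38 ± 0.11, edgeR adjusted p = 0.0233). Ndufb9 (-0.42), Ndufa1 (-0.37) and Sdhb (-0.27) overlapped between the days. All 5 had also been called lower after CCl4, where 50 of the 94 members tested in both experiments were lower, so the 5 are 10% of those. Of all 802 genes lower at day 3 and tested in both, 47.3% were also lower after CCl4. Of these, Ndufa6 and Ndufb9 were called lower in all 3 experiments. The count of 5 fell to 2 without day 3 wild-type liver 14, and to 3 without day 3 liver 15 or 16 or day 0 liver 12 or 16.

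Among the mitochondrial members at day 3, mt-Nd1 had 7467, 8310, 8895, 8942 and 11260 CPM against 6578, 7279, 7946, 8130 and 9341 at day 0, and mt-Cytb had 8900, 9571, 9640, 11020 and 11770 against 8997, 11230, 11380, 13160 and 13340. The log2 fold changes were 0.19 ± 0.14 and -0.19 ± 0.13, neither past the threshold. Day 3 wild-type livers 12 and 14 stood apart: 8 striated muscle markers summed to 2587 and 186 CPM in them and to at most 0.788 in the other 3. Without these livers Ndufs7 alone was called. In wild-type livers the hepatocyte markers summed to 136300 to 157400 CPM at day 3 and 92660 to 110200 at day 0, with 1 of 10 higher and 1 lower, and the stellate markers, 5 of 8 higher, to 249 to 890 against 124 to 246 CPM. The part of these shifts in the members' levels was not tested.

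Set side by side, 29 members were called lower both after CCl4 and on Western diet, of 100 tested in both. They are 52.7% of the 55 lower after CCl4 and 65.9% of the 44 lower on Western diet. Of all 11576 genes tested in both, 476 were lower in both, which is 46% of those lower after CCl4 and 22.2% of those lower on Western diet. Whether the members' shares differ from those of all genes was not tested. They include mt-Nd3, mt-Co1, mt-Co2, mt-Co3 and mt-Atp6.

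Livers labelled Bmp8b knockout did not differ from wild-type livers under the same challenge in any member at the threshold. The counts called by edgeR were 0 of 102 on Western diet, 0 of 100 after CCl4 and 0 of 95 at day 3, while 0.0154%, 0.00857% and 0.154% of all genes were called in either direction. Unadjusted p was under 0.05 for 10, 1 and 3 members. Over all genes it was under 0.05 for 766 of 13005, 719 of 11663 and 1001 of 11026. DESeq2 and limma voom called 0 as well in each of the 3 comparisons. The smallest p on Western diet was that of mt-Nd6, which ran from 21.8 to 58.2 CPM (median 34.6) in the labelled knockout and from 18.2 to 33.9 (median 22.2) in wild-type livers (log2 fold change 0.67 ± 0.18, edgeR adjusted p = 0.790). It was followed by Uqcrb of complex III (0.27) and Ndufv2 of complex I (0.19). After CCl4 the smallest p-values were those of Ndufa5 (0.42), Ndufb11 (0.31) and Ndufa6 (0.29), and at day 3 those of Uqcrq (0.28), Ndufaf3 (0.64) and Ndufs1 (-0.24), none past the threshold.

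Labelled knockout livers under challenge were also set against the wild-type controls, which mixes genotype and challenge and shares its controls with the comparisons above. On Western diet mt-Nd6 was higher (0.58 ± 0.17) and 12 of 90 nuclear members were lower, against 10.2% of all genes lower and 15.1% higher. With library totals 3 members were higher and 4 lower. After CCl4, 8 of 12 mitochondrial and 14 of 88 nuclear members were lower, against 3.40% of all genes lower and 5.91% higher. This count of 22 was 54 with the i5 index as a covariate, 45 with DESeq2, 41 with limma voom, 35 without livers 34 and 35, 10 with library totals and 7 without a filter. The share of all genes called under these other settings is not given here, so these counts cannot be set against it. At day 3, mt-Nd5 (-0.53 ± 0.17), Ndufb3, Ndufs7 and Ndufv1 were lower, against 5.00% of all genes lower and 7.23% higher. These counts moved with single livers: the 13 on Western diet became 26 without labelled knockout liver 33 and 8 without liver 35, the 22 after CCl4 became 10 to 14 without labelled knockout liver 2 or 8 or olive oil liver 24, 27, 28 or 29, and the 4 at day 3 became 1 without day 0 liver 12, 14 or 16 and 2 without wild-type day 3 liver 14 or labelled knockout liver 18, 19 or 20. The sizes after CCl4 can be read beside the wild-type ones: mt-Nd2 was at -0.84 in the labelled knockout and -0.96 in wild-type livers, mt-Co1 at -0.72 and -0.83, Sdhb at -0.72 and -0.93, and Ndufb9 at -0.69 and -0.81.

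Whether the wild-type response differed between challenges was tested in 1 fit of all 53 libraries. The log2 change after CCl4 was lower than that on Western diet in 24 members and higher in none, of 100 tested in both. Over all 12646 genes 7.72% were called lower and 8.37% higher. Of these 24, 4 were mitochondrial: mt-Nd2 (difference of log2 fold changes -0.68 ± 0.20, edgeR adjusted p = 0.0125), mt-Atp8 (-0.62), mt-Nd4 (-0.56) and mt-Co1 (-0.56). The 5 largest nuclear differences were those of Ndufaf1 (-0.84 ± 0.23), Uqcr11 (-0.84 ± 0.27), Uqcrq (-0.83 ± 0.30), Sdhb (-0.79 ± 0.16, edgeR adjusted p = 0.00045) and Ndufa13 (-0.71 ± 0.23). On the diet Uqcrq was itself at 0.04. With library totals 13 members were called. Leaving out wild-type liver 36 on Western diet left 15.

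**Figure D4:**
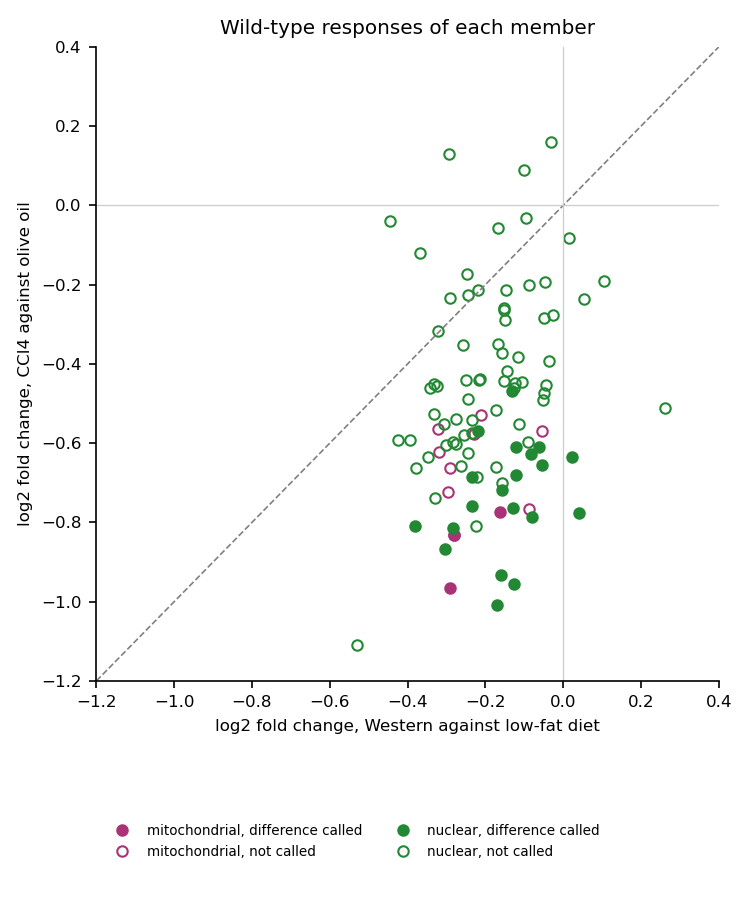
Log2 fold change of each of the 100 members after CCl4 against olive oil (y axis) and on Western against low-fat diet (x axis) in wild-type livers, with the line of equal change dashed. Filled points mark members whose difference was called in the joint fit. All filled points lie below the dashed line, and in the joint fit 90 of the 100 differences were below 0.

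Against hepatectomy, the log2 change after CCl4 was lower in 16 members of 94 and higher in none, with 3.80% of all genes called lower and 2.29% higher. They were mt-Nd2 (-0.87), mt-Co1 (-0.83), mt-Nd1 (-0.73) and mt-Nd4 (-0.65) and 12 nuclear members, among them Ndufaf6 (-1.12), Atp5c1 (-0.68), Atp5j (-0.67) and Sdhb (-0.67). In the surgery table, mt-Co1 and mt-Nd4 were counted at 47.6% and 44.3% of the olive oil level at day 0. Their differences thus set unlike counts of a gene side by side, and the part of this was not tested. The largest difference, that of Atp5g1 (-1.39 ± 0.34), rests on its 0.847 to 6.57 CPM in the wild-type livers of the surgery table, where its log2 change was 0.84. With library totals 1 member was higher and 3 lower, without wild-type liver 34 after CCl4 5 were called, without liver 7 of that group 27, and without day 3 livers 12 and 14 8 were called. Leaving out olive oil liver 24, olive oil liver 27 or day 0 liver 13 left 10 each.

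Between hepatectomy and Western diet 3 members differed, against 1.53% of all genes lower and 2.00% higher: Atp5g1 (1.19 ± 0.32), Atp5l (0.89 ± 0.27) and Cox7a2 (0.43 ± 0.13). The first pair are the genes that were low in the surgery table. Cox7a2 fell on Western diet, from a median of 138.1 to 117.7 CPM, and had medians of 117.8 and 127.6 at day 0 and day 3. The count fell to 0 without day 0 liver 13 or 15. It fell to 1 without day 0 liver 12, wild-type day 3 liver 14 or 16, low-fat liver 7, 12, 18, 20, 21 or 26, or wild-type Western diet liver 14, 17, 23, 34 or 36.

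The mitochondrial ribosomal RNAs, which are no members and are transcribed upstream of mt-Nd1 on the same strand, were lower in all 3 challenges. mt-Rnr1 fell by 1.46 and mt-Rnr2 by 1.53 on the log2 scale after CCl4, by 1.08 and 0.96 on Western diet, and by 0.76 and 1.05 at day 3 of hepatectomy (edgeR adjusted p between 0.000184 and 0.00186). Their summed level was 387 to 474 CPM in wild-type livers after CCl4 and 858 to 2149 after olive oil, and 420 to 758 at day 3 and 955 to 1270 at day 0. On Western diet it was 415 to 739 and on low-fat diet 474 to 1351, so the diets overlapped. Libraries were made by messenger RNA selection, so these levels are not those of the ribosomes. At day 3 the 2 ribosomal RNAs were thus called lower while none of the 7 mitochondrial messengers was.

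Complex IV has isoforms that differ between tissues. Of the widely expressed forms, Cox4i1, Cox6a1 (-0.61) and Cox6b1 (-0.47) were lower after CCl4, Cox7b was lower after CCl4 (-0.60) and on Western diet (-0.27), and Cox7a2 was lower on Western diet (-0.32). Cox8a and the supercomplex factor Cox7a2l were called in none of the 3 wild-type comparisons. The heart and skeletal muscle forms Cox6a2 and Cox8b were raised in day 3 wild-type livers 12 and 14, and Cox7a1 in liver 12. Cox6a2 was at 38.9 CPM in liver 12 and 3.93 in liver 14, and at 0 in the other 3 and in all 5 day 0 livers. Cox8b was at 11.7 and 1.07 CPM in the same livers and at 0 in the other 3, and Cox7a1 was at 8.83 CPM in liver 12 and at 1.05 to 1.19 in the other 4. These are the livers with striated muscle markers at 2587 and 186 CPM. In the labelled knockout livers at day 3, Cox6a2 was at 0, 0, 0 and 0.534 CPM. Cox6a2 and Cox8b reached 1 CPM only in the wild-type group at day 3, so no test of them is given.

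Cox6b2, the testis form of subunit 6b, showed another pattern. At day 3 it was at 1.19, 2.50, 2.71, 2.89 and 3.12 CPM in wild-type livers and at 0.542, 1.88, 2.94 and 4.35 in labelled knockout livers, whereas 4 of the 5 day 0 livers held 0 and the fifth 0.304. After CCl4 it was at 0, 0.525, 0.913 and 2.67 CPM in wild-type livers. Labelled knockout livers after CCl4 were at 0, 0.250, 1.33, 1.93, 2.92 and 5.76. The olive oil livers were at 0 to 0.772, so both CCl4 groups overlapped them. These levels are given with no test, since the choice of members used them. Dividing-cell markers summed to 128 to 320 CPM at day 3 and 4.52 to 15.2 at day 0 in the same wild-type livers, and their part in the result was not tested. Ndufa4l2, a paralog of Ndufa4 known to be induced by hypoxia, was at 1.93 to 4.45 CPM at day 3 and 0.392 to 3.13 at day 0, which did not pass the test (log2 fold change 1.13 ± 0.48, edgeR adjusted p = 0.111).

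**Figure D5:**
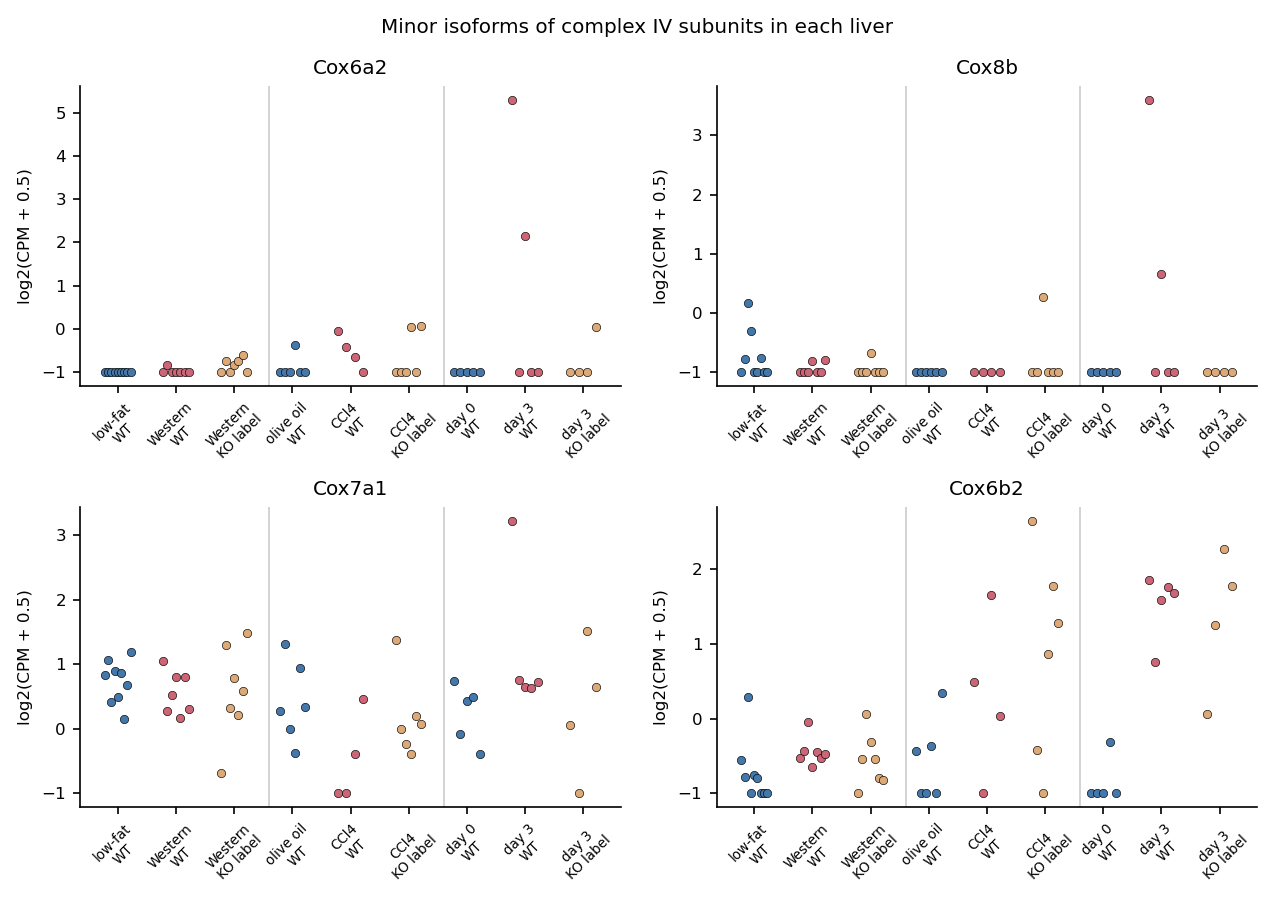
Level of Cox6a2, Cox8b, Cox7a1 and Cox6b2 in each liver (points) by group (x axis), on a log2(CPM + 0.5) y axis. The high points of Cox6a2 and Cox8b at day 3 are those of wild-type livers 12 and 14 and that of Cox7a1 is liver 12, while Cox6b2 is above every day 0 liver in all 9 day 3 livers.

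Other genes of mitochondrial function were read from lists of related genes. Of 76 mitochondrial ribosomal protein genes tested on Western diet, 19 were lower and 1 higher (median log2 fold change -0.13), led by Mrpl15 (-0.49), Mrpl3 (-0.34), Mrpl18 (-0.34) and Mrps24 (-0.35). After CCl4, 6 of 75 were lower and none higher, and at day 3, 7 of 74 were lower and none higher. Over all genes 17.0% were lower and 20.4% higher on Western diet, 8.87% and 11.1% after CCl4, and 7.50% and 9.87% at day 3, so the counts lower after CCl4 and at day 3 were near the background. Genes for copying and reading out mitochondrial DNA had 8 lower and 2 higher of 29 on Western diet, among them the helicase Twnk (-0.35), the RNA-binding protein Lrpprc (-0.34) and Fastkd1 (-0.41) lower and Mterf2 (1.00) higher. Further assembly factors had 10 lower and 1 higher of 39, with Tmem126a (-0.34), Surf1 (-0.26) and Sco1 (-0.31) lower and Cox19 (0.33) higher.

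Genes of the tricarboxylic acid cycle, which feeds NADH and succinate to the chain, had 6 lower and none higher of 18 after CCl4, where 8.87% of all genes were lower: Idh3b (-0.82), Pdha1 (-0.61), Idh3g (-0.53) and Suclg2 (-0.82) had the smallest p. On Western diet, where 17.0% of all genes were lower and 20.4% higher, 2 were higher and 4 lower, and at day 3, 2 higher and 1 lower, against 7.50% lower and 9.87% higher. Of 10 transcriptional regulators of mitochondrial genes, Gabpa (-0.24) and Yy1 (-0.25) were lower on Western diet and none was higher. Import and membrane genes had 5 lower and none higher of 19 on Western diet, led by Timm9 (-0.49), and mitochondrial transfer RNA synthetases had 4 lower and 1 higher of 17, with Yars2 (-0.37) lower and Iars2 (0.21) higher. Respiratory genes outside the chosen symbols had 4 lower and 1 higher of 14 on Western diet and 2 lower and 3 higher at day 3. Atpif1, the inhibitor of ATP synthase, was higher in both (0.48 and 1.02), and Sqor was lower on Western diet (-0.31) and higher at day 3 (0.43). Chaperones and proteases had 1 higher and 1 lower of 14 on Western diet and 2 lower in each of the other comparisons.

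Promoters of nuclear members were searched because many such genes are known targets of NRF1 and of ETS factors such as GABPA. A window of 250 bases before to 50 after the gene start was taken from RefSeq (GRCm38.p6) for the 78 of 93 nuclear members that matched, and read on both strands. The NRF1 core CGCATGCG was present in 12.8% of members and in 2.66% of 16522 promoters, the ETS letters CCGGAAG in 25.6% and 12.3%, and the YY1 letters AAGATGGC in 12.8% and 3.29%. At least 1 of the 3 was present in 44.9% of members and 17% of all promoters. A match is a description of the sequence only. Uqcr11 and Sdhb, members with large falls after CCl4, are shown from 170 bases before to 30 after the start, with matches in capitals. The stretches are chr10:80406792-80406991 on the minus strand and chr4:140961101-140961300 on the plus strand.
Uqcr11: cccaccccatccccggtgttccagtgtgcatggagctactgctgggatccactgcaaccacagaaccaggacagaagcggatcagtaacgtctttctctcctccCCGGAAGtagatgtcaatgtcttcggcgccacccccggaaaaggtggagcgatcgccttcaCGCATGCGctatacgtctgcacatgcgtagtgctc
Sdhb: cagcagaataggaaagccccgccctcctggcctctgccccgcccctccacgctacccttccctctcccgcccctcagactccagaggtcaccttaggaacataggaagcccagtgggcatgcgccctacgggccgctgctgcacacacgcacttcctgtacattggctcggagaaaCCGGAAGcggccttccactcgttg
In Uqcr11 the ETS letters begin 66 bases before the RefSeq start, and the NRF1 core begins 5 bases before it and runs across it. In Sdhb the ETS letters begin 6 bases after the RefSeq start. These RefSeq starts differ from the starts in the GENCODE gene positions given above.

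Correlations between members from liver to liver differed between pairs of 1 genome and mixed pairs. After group means were removed, Pearson correlations of log2(CPM + 0.5) over the 53 libraries had a median of 0.736 over the 21 pairs of mitochondrial members (range -0.193 to 0.924), 0.347 over 3741 pairs of nuclear members and 0.012 over 609 mixed pairs. Only the 94 members measured in all 3 experiments enter. mt-Nd6 had a median r of 0.029 with the other mitochondrial members, each of which had 0.651 to 0.797. Pairs within a nuclear complex had medians of 0.344 (I), 0.211 (II), 0.382 (III), 0.375 (IV) and 0.443 (V), and pairs across complexes 0.345. The nuclear members most like the others were Ndufb10 (median r 0.557), Atp5f1 (0.549) and Uqcrfs1 (0.535). The points share their library and its scaling, so no p is given. Correlations of genes outside the members are not given here, so these medians cannot be set against theirs. Mitochondrial messengers are known to be cut from long shared transcripts.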

How the data were processed

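Whole-liver messenger RNA was sequenced in 53 liver samples. The authors deposited 1 table of read counts per gene for each experiment, with whole numbers and no normalization. Per the submitters' processing notes, the tools were TopHat2 2.0.11 and HTSeq, with the GRCm38 build. The annotation release, the use of strand and the treatment of reads with several matches are not given in the sources used here. The diet and CCl4 tables list 38293 genes and the hepatectomy file lists 53379.

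Groups came from the sample labels. Counts were scaled with TMM factors, filtered with filterByExpr and fitted per experiment with edgeR 4.0.16 (quasi-likelihood F-test, R 4.3.3). P-values were adjusted by Benjamini-Hochberg over all genes tested, and genes under 0.05 were called. One fit of all 53 libraries tested differences of responses, where a member counts only if each experiment's own fit tested it. The fits were tested on simulated data. Alternatives were DESeq2 1.42.0, limma 3.58.1 voom, other scalings and filters, the i5 index, fits of only 2 groups and leaving out each liver. Leaving out CCl4 livers 34 and 35, day 3 livers 12 and 14, or Western diet livers 1, 32 and 36 was chosen after seeing the data. Gene positions, transcript lengths (principal transcript) and copies (BLAST 2.17.0) used GENCODE M21.

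Members and gene lists were chosen with earlier results of these data known. Named are the mitochondrial members, the 5 largest rises and falls among called nuclear members per wild-type comparison and per difference, the 3 smallest p-values per labelled knockout comparison, the 2 most abundant nuclear genes per complex, isoform families and up to 4 genes per list. Counting error at low levels limits members of a few CPM most, and no group of unchallenged knockout livers was used. One result of a single gene is not reported here.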

Additional observations from a re-analysis of the deposited data

Results flagged for a closer look

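Over 252 sets of values (a quantity in a group of 4 to 10 livers), 16 held a liver far from the others, where chance alone gives about 1 in 20. Liver 26 after olive oil had the lowest nuclear share, 0.967% of counts against 1.05% to 1.10% in the others. The summed mitochondrial ribosomal RNAs were highest in wild-type liver 5 on Western diet (739 CPM, others at most 535.6) and in liver 27 after olive oil (2149 CPM, others at most 1146).

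Labelled knockout liver 33 on Western diet had the highest Ndufs7 (54.5 CPM, others 23.2 to 36.5) and Cox4i1 (382.7 CPM, others 256.8 to 302.3). After CCl4, labelled knockout liver 35 was highest for mt-Nd1 (9102 CPM, others 4447 to 5231) and lowest for mt-Nd6 (12.5 CPM, others 40.2 to 53.8). Labelled knockout liver 2 was lowest for Ndufs7 (23.2 CPM) and highest for Cox7a1 (2.10 CPM), and labelled knockout liver 9 was highest for Ndufb5 (79.8 CPM). Wild-type liver 34 was lowest for Atp5g1 (21.8 CPM, others 52.5 to 55.2), and liver 24 after olive oil was highest for Ndufaf1 (40.0 CPM). At day 3, labelled knockout liver 17 was highest for mt-Nd6 (56.1 CPM, others 16.2 to 22.9). Wild-type liver 12 was highest for Cox6a2 (38.9 CPM), Cox7a1 (8.83 CPM) and Cox8b (11.7 CPM).

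Responses of wild-type livers differed between challenges in the joint edgeR fit for 24 members (CCl4 against diet), 16 members (CCl4 against hepatectomy) and 3 members (hepatectomy against diet). For CCl4 minus diet, the differences of log2 fold changes were -0.68 for mt-Nd2, -0.62 for mt-Atp8, -0.56 for mt-Co1 and mt-Nd4, -0.84 for Ndufaf1 and Uqcr11, -0.83 for Uqcrq, -0.79 for Sdhb and -0.71 for Ndufa13. For CCl4 minus hepatectomy they were -0.83 for mt-Co1, -0.87 for mt-Nd2, -0.65 for mt-Nd4, -0.73 for mt-Nd1, -1.39 for Atp5g1, -1.12 for Ndufaf6, -0.68 for Atp5c1, and -0.67 for Atp5j and Sdhb. For hepatectomy minus diet they were 1.19 for Atp5g1, 0.89 for Atp5l and 0.43 for Cox7a2.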

How the results depend on the processing

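Of 600 alternative values of the counts and medians, all but 94 stayed near the main value. Near means a count within 1.5 times of the main one, or a median moved by less than 1 SD between livers. The share of all genes called under each alternative is not given here, so a changed count may reflect all genes or the members. All 170 alternative medians of the wild-type comparisons lay below 0. The cause of the changes below was not tested. On Western diet the mitochondrial count of 5 became 0 with library totals, 2 with upper-quartile scaling, 2 without a filter, 3 with a 1 CPM filter, 9 with limma voom, 3 with only the 2 groups, and 0 within i5 index D502. The nuclear count of 39 became 14 with library totals (median -0.0051), 18 within D501 and 9 within D502. For labelled knockout on Western diet against low-fat controls, 13 became 7 with library totals, 22 with limma voom, 3 within D501 and 0 within D502.

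After CCl4 the mitochondrial count of 9 became 4 without a filter. Library totals gave 9 nuclear members and medians of -0.47 (mitochondrial) and -0.26 (nuclear), and the i5 index as a covariate gave a nuclear median of -0.66. For labelled knockout after CCl4 against olive oil, 22 became 45 with DESeq2, 10 with library totals, 7 without a filter, 41 with limma voom, 54 with the i5 covariate and 35 without livers 34 and 35. Among livers given CCl4, only wild-type liver 34 and labelled knockout livers 22 and 35 shared an index with olive oil livers. The fits with the i5 covariate separate index from treatment through these livers alone.

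At day 3 library totals gave 1 mitochondrial call. The nuclear count of 5 became 1 without wild-type livers 12 and 14. The labelled knockout against wild type had 1 call without a filter, that of Cox6a2. This gene became a member only through the wild-type day 3 group, where liver 12 held 38.9 CPM, so the call is no result about genotype. Labelled knockout at day 3 against day 0 had 7 calls with DESeq2, 2 with library totals, 7 with upper-quartile scaling, 1 with only the 2 groups and 1 without livers 12 and 14, in place of 4. CCl4 minus diet gave 13 with library totals. CCl4 minus hepatectomy gave 27 with DESeq2, 4 with library totals, 8 without a filter and 8 without livers 12 and 14. Hepatectomy minus diet gave 1 without a filter, 5 with limma voom and 1 without livers 12 and 14.

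Leaving out 1 liver at a time gave 1 to 8 mitochondrial and 36 to 44 nuclear calls on Western diet (medians -0.34 to -0.24 and -0.21 to -0.14), 8 to 10 and 31 to 55 after CCl4 (-0.73 to -0.64 and -0.58 to -0.38), and 0 to 0 and 2 to 6 at day 3 (-0.26 to -0.13 and -0.14 to -0.09). Labelled knockout against wild type had 0 to 0 calls in each experiment, and against controls 8 to 26 on Western diet, 10 to 29 after CCl4 and 1 to 5 at day 3. The differences gave 15 to 28 (CCl4 minus diet), 5 to 27 (CCl4 minus hepatectomy) and 0 to 3 (hepatectomy minus diet). Of 4126 values of called members named here, 3484 kept direction and call, 641 lost the call and 1 reversed: mt-Nd6 in the labelled knockout on Western diet against low-fat was at -0.0424 within D502.

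Wild-type day 0 and day 3 livers share the numbers 12 to 16, and the labels do not say whether a number marks 1 mouse. Deviations of same-numbered livers correlated at -0.021 to 0.09, and those of other pairs at -0.09 to 0.052. The highest values, 0.09 and 0.076, were those of livers numbered 16 and 15. With so few livers, values this small cannot decide whether a number marks a pair. The main fit treated the livers as unpaired. With the replicate block 0 mitochondrial and 3 nuclear members were called, with medians of -0.17 and -0.12. A fit with the i5 index as covariate was not run for hepatectomy, where index and day cannot be told apart. The depth leaves members of 1 to 5 CPM, such as Cox6b2, with few reads.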
